A study of Rattus norvegicus with 48 samples.

Results

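miR-103, listed as rno-miR-103, was 1 of 143 miRNAs whose level was read in the livers of male Sprague-Dawley rats. It was chosen on measured values, namely the log2 CPM of its row (counts of a miRNA scaled to a common total, on the log2 scale), compared between diets within each time and treatment. The differences between diets are therefore described without a test, and tests were kept to changes with time or treatment averaged over both diets, which do not use the difference between diets. Adult rats aged 8 to 14 wk were kept on liquid food for 6 to 8 wk. Ethanol (EtOH) supplied 36% of their calories, and carbohydrate (CHO) took its place in pair-fed controls. The rats then underwent 70% partial hepatectomy (PHx). Liver was taken at 0 h, before surgery, or after regrowth of the remnant for 6, 24, or 72 h. Untreated rats of each diet were collected at all of these times. Rats injected intraperitoneally with saline, or with AM21, a locked nucleic acid oligonucleotide antisense to miR-21 (7.5 mg/kg), were collected at 0 and 24 h. The injections were given 72 h before surgery and again right after it. Liver of 0 h was taken before surgery, so the second injection can have reached the 24 h animals only. In injected rats, time and the second injection thus cannot be told apart. The 48 animals fell into 16 groups of 3, and the diets could be compared in 8 settings of time and treatment.

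miR-103 and its close relative miR-107 are encoded inside genes of pantothenate kinase, the enzyme that starts coenzyme A synthesis. In liver and fat of rodents they are known to lower insulin sensitivity, in part by repressing caveolin-1, a membrane protein that stabilises the insulin receptor. miRNAs bind mRNAs chiefly through the seed near their 5′ end, so that relatives with the same seed share many targets.

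The mature sequences of miR-103, of miR-107, and of the 5 measured miRNAs whose seed is shifted by 1 base are shown to make clear which measured miRNAs could share targets with miR-103. All 7 names were matched to RefSeq entries (GRCr8). The sequences run 5′ to 3′, and capitals mark the seed, bases 2 to 8.
miR-103-3p: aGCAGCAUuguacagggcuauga
miR-107-3p: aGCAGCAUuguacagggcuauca
miR-15b-5p: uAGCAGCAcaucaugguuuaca
miR-16-5p: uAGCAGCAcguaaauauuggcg
miR-195-5p: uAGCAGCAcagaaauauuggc
miR-322-5p: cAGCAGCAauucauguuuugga
miR-497-5p: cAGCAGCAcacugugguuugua
miR-103-3p and miR-107-3p had the same seed, GCAGCAU, and the same length of 23 bases. They differed by 1 substitution, G22C, counted from 1 at the 5′ end of miR-103-3p. The first 7 bases of miR-103-3p recurred from base 2 in the other 5 miRNAs, whose seed was AGCAGCA. The deposited names of these miRNAs carry no arm, and the arms shown are those usually meant by such names.

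The mature miR-103 sequence occurred in 2 hairpins, so its level is a sum over both loci. The hairpins are shown with the mature miRNA in capitals, because a probe for the mature sequence reads them alike.
Mir103a1: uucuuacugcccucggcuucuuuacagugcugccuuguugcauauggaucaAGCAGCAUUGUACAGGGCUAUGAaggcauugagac
Mir103a2: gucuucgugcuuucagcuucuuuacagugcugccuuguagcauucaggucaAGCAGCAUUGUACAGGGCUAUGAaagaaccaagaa
Mir103a1 lay at chr10:20748474-20748559 on the plus strand, within the bounds of Pank3. Mir103a2 lay at chr3:138963227-138963312 on the plus strand, within Pank2. The single hairpin of miR-107 lay at chr1:241750418-241750504 on the minus strand, within Pank1. All 3 host genes encode pantothenate kinases.

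In the NanoString nCounter assay, colour-coded probes are counted one by one on unamplified RNA. Whole counts were recovered from the deposited log2 CPM. Totals over the 143 miRNAs ran from 58168 to 267582 per animal, with a median of 160078. miR-103 had 29 to 138 counts per animal with a median of 84.5, and ranked 75 of 143 by mean count. Probes can differ in efficiency, so this rank orders counts and not abundance. The lowest mean count of any of the 143 miRNAs was 30.3. In untreated CHO-fed animals at 0 h, miR-103 had a mean of 44.7 counts, toward that lower end. No background count is given in the sources used here, and how far these counts lay above background was not tested. Counting error alone amounted to 0.268 on the log2 scale at 29 counts and 0.123 at 138 counts. These figures cover counting error only, and the spread between the 3 animals of a group, pooled over the groups, had an SD of 0.231.

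In untreated CHO-fed animals at 0 h, miR-103 stood at 8.58, 8.86, and 8.54 log2 CPM. In untreated EtOH-fed animals at 0 h it stood at 9.19, 9.41, and 9.36. All 3 EtOH-fed livers lay above all 3 CHO-fed livers before surgery, as they did for 6.99% of the 143 miRNAs. At 6 h after PHx, the levels were 9.05, 9.0, and 8.69 in CHO-fed animals and 9.52, 9.10, and 9.34 in EtOH-fed animals. Here too the diets did not overlap, with the lowest EtOH-fed animal 0.05 above the highest CHO-fed animal, and 4.9% of miRNAs were separated in this direction.

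At 24 h after PHx, untreated CHO-fed animals had 8.58, 8.45, and 8.92 log2 CPM of miR-103. The untreated EtOH-fed animals at 24 h had 9.34, 9.31, and 9.33, the narrowest spread of the 16 groups. The diets were again separate, as they were for 12.6% of miRNAs with EtOH higher. At 72 h, the levels were 8.69, 9.11, and 8.94 in CHO-fed animals and 9.28, 9.11, and 9.24 in EtOH-fed animals. The lowest EtOH-fed and the highest CHO-fed animal met at this time, so the groups overlapped, while 12.6% of miRNAs were separated with EtOH higher.

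In saline-treated animals at 0 h, miR-103 stood at 9.31, 9.12, and 9.38 log2 CPM in CHO-fed and at 9.15, 9.12, and 9.41 in EtOH-fed livers. At 24 h, the levels with saline were 9.07, 8.59, and 9.28 in CHO-fed and 8.97, 8.95, and 9.24 in EtOH-fed livers. With saline the diets overlapped at both times, whereas 9.09% of miRNAs at 0 h and 7.69% at 24 h were separated with EtOH higher. AM21-treated animals at 0 h had 9.41, 8.75, and 9.02 in CHO-fed and 8.98, 9.42, and 9.40 in EtOH-fed livers. AM21-treated animals at 24 h had 8.18, 8.81, and 9.05 in CHO-fed and 9.31, 8.94, and 9.34 in EtOH-fed livers. With AM21 the diets overlapped at both times as well, and 9.79% of miRNAs at 0 h and 8.39% at 24 h were separated with EtOH higher. The lowest liver of all was CHO-fed replicate 1 at 24 h with AM21, which had 36 counts of miR-103.

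**Figure D1:**
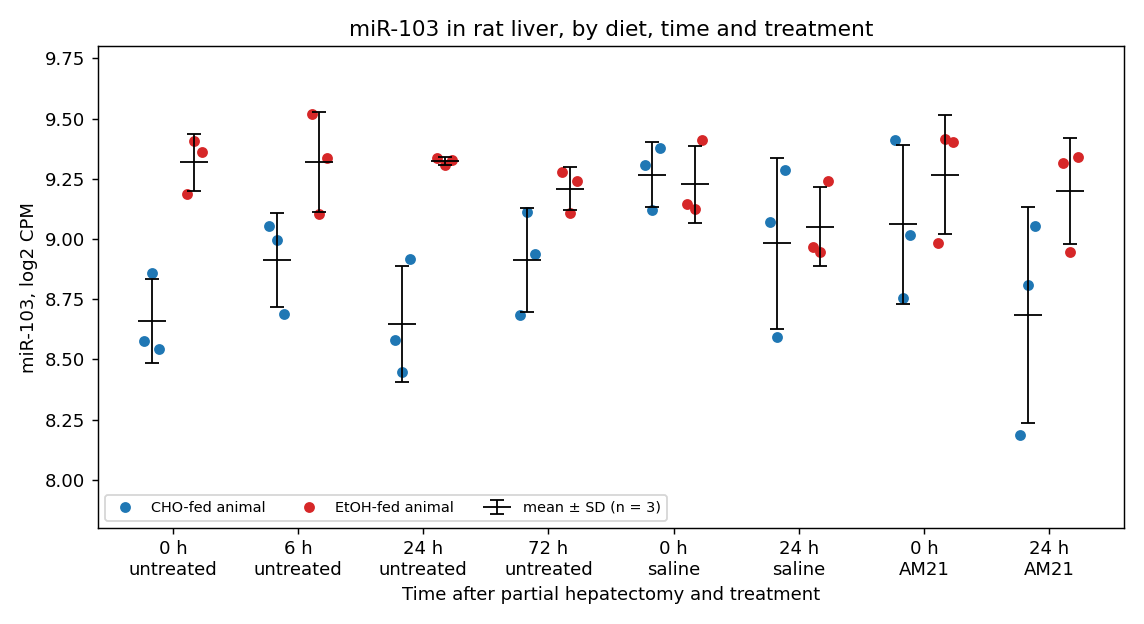
Level of miR-103 (log2 CPM) in each of the 48 livers, with CHO-fed animals in blue and EtOH-fed animals in red, by time after PHx and treatment, and bars showing the mean and SD of 3 animals. In untreated livers the diets were separate at 0, 6, and 24 h and overlapped at 72 h, and with saline or AM21 they overlapped at both times.

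By group mean, miR-103 was highest in untreated EtOH-fed animals at 24 h (9.32 ± 0.02, SD, n = 3), at 6 h (9.32 ± 0.21), and at 0 h (9.32 ± 0.12). These were followed by EtOH-fed animals with AM21 at 0 h (9.27 ± 0.25), CHO-fed animals with saline at 0 h (9.27 ± 0.13), EtOH-fed animals with saline at 0 h (9.23 ± 0.16), untreated EtOH-fed animals at 72 h (9.21 ± 0.09), and EtOH-fed animals with AM21 at 24 h (9.20 ± 0.22). The upper part of the order thus held 7 EtOH-fed groups and 1 CHO-fed group, the saline-treated animals at 0 h. Next came CHO-fed animals with AM21 at 0 h (9.06 ± 0.33), EtOH-fed animals with saline at 24 h (9.05 ± 0.16), CHO-fed animals with saline at 24 h (8.98 ± 0.35), and untreated CHO-fed animals at 6 h (8.91 ± 0.20) and 72 h (8.91 ± 0.21). The lowest means were those of CHO-fed animals with AM21 at 24 h (8.68 ± 0.45) and of untreated CHO-fed animals at 0 h (8.66 ± 0.17) and 24 h (8.65 ± 0.24). No 2 neighbours in this order differed by more than the larger of their SDs.

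Group means ranged over 0.27 on the log2 scale in the 8 EtOH-fed groups, from 9.05 to 9.32. In the 8 CHO-fed groups they ranged over 0.62, from 8.65 to 9.27. Most of the movement of miR-103 among groups therefore lay in CHO-fed livers, where the SD within groups was also larger, at 0.28 against 0.168 in EtOH-fed livers. Whether the spread differed between the diets was not tested.

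The EtOH minus CHO difference in miR-103 was largest in untreated livers at 24 h, at 0.68 on the log2 scale (standard error 0.17, a 1.6-fold difference), and at 0 h, at 0.66 (standard error 0.17, 1.58-fold). The value was 0.41 for 6 h and 0.30 for 72 h, with the same standard error of 0.17. The 72 h value was 0.18 without the CHO-fed animal at 8.69 log2 CPM, and also 0.18 with scaling to the total count alone. EtOH-fed livers thus had the higher mean at all 4 times of the untreated course. The differences in all 8 settings, with saline and AM21 as well, are the values on which miR-103 was selected. With saline, EtOH minus CHO was -0.04 before surgery and 0.07 at 24 h, smaller than the standard error of 0.21. Both changed sign with single animals left out, running from -0.13 to 0.014 at 0 h (positive with CHO-fed animal 3 or EtOH-fed animal 2 removed) and from -0.13 to 0.22 at 24 h (negative with CHO-fed animal 2 or EtOH-fed animal 3 removed). No direction can be read with saline. With AM21, EtOH minus CHO was 0.21 before surgery and 0.52 at 24 h (standard error 0.21 for both). The AM21 values also rested on single animals. At 0 h the value was 0.05 or 0.38 after removal of CHO-fed animal 2 or 1, 0.13 or 0.35 after removal of EtOH-fed animal 2 or 1, and it was 0.014 with scaling to the total count alone. At 24 h it was 0.27 without CHO-fed replicate 1.

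Over all 8 settings, all of which were used in the selection, the mean difference was 0.35. EtOH-fed animals had the higher mean in 7 of 8, a count that includes the 24 h saline setting, where the sign turned with 1 animal. Among the 143 miRNAs, 25 had a higher mean in EtOH-fed animals in at least 7 settings, and 12, miR-103 among them, had all 3 EtOH-fed above all 3 CHO-fed animals in at least 3 settings. The other 11 were miR-151, miR-152, miR-30c, miR-365, let-7d, miR-148b-3p, miR-16, miR-210, miR-342-3p, miR-409-3p, and miR-425, of which miR-152, miR-210, miR-409-3p, and miR-425 belong to no list used here and were named after their values were seen.

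Scaling moved with diet at 0 h. The TMM factor, which the authors' scaling applied to each total count, was lower with EtOH in untreated livers at 0 h, with a difference of -0.26 on the log2 scale (EtOH minus CHO). It was -0.25 with saline and -0.19 with AM21 at that time, against 0.22 with AM21 at 24 h. Scaled to the total count alone, an alternative chosen after seeing the data, the untreated difference in miR-103 was 0.40 at 0 h, while the median of all miRNAs was -0.31. At 24 h it was 0.63 in untreated livers, with a median of -0.07. With saline at 0 h it was -0.29, which lay close to the median of -0.28. A scaling factor shifts all miRNAs of a liver alike, so the place of miR-103 among the 143 differences, rank 5 from the highest at 0 h and rank 4 at 24 h in untreated livers, cannot change with it and says nothing about scaling. The part of scaling in the difference between diets was not tested.

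The mean count of miR-103 in untreated CHO-fed livers was lowest at 0 h, at 44.7 against 50 at 6 h, where the animals had 48, 49, and 53. At 0 h, the untreated CHO-fed animals had 50, 29, and 55 counts of miR-103 within totals of 101461, 58168, and 126821. The lower mean at 0 h thus rested on replicate 2. The untreated EtOH-fed animals at 0 h had 87, 59, and 134 counts within totals of 146220, 92245, and 205241. Replicate 2 thus had the smallest total in both diets, and CHO-fed livers had the lower depth at this time. Over the 48 animals, the correlation of miR-103 with the log2 total count was 0.208, and within groups it was 0.046.

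Liver holds several cell types and blood, and in whole tissue fewer cells of a type and less RNA per cell cannot be told apart. All 3 listed hepatocyte miRNAs (miR-122, miR-192, and miR-194) were measured and none was near 0, with a summed level of 332267 to 874395 CPM per animal, most of it miR-122. Both red blood cell miRNAs, miR-144 and miR-451, were measured, with a sum of 407 to 5974 CPM and at least 26 counts each. In untreated livers at 24 h, this sum was 1195, 2249, and 1751 CPM in CHO-fed and 4360, 4249, and 3272 CPM in EtOH-fed animals. Blood miRNAs thus moved with diet together with miR-103 at 24 h, without overlap. At 72 h the sum was 661, 550, and 634 CPM in CHO-fed and 707, 1898, and 1671 CPM in EtOH-fed animals, again without overlap. At 6 h it went the other way, with a difference of -0.55 on the log2 scale, while miR-103 was higher in EtOH-fed animals. With both blood miRNAs as a covariate, the difference in miR-103 between diets in untreated livers was 0.68, 0.38, 0.75, and 0.36 at 0, 6, 24, and 72 h. The remaining lists were measured in 4 of 6 leukocyte, 1 of 2 endothelial, and 4 of 5 mesenchymal miRNAs, led by miR-142-3p, miR-126, and miR-145. Their summed levels were 2489 to 4794, 13134 to 46454, and 12836 to 31107 CPM per animal. Sums of other lists than blood did not overlap between diets in some settings. In untreated livers, the mesenchymal sum at 0 h was 17403 to 20849 CPM in EtOH-fed and 21319 to 22276 CPM in CHO-fed animals, and the endothelial sum at 72 h was 31380 to 36836 against 25492 to 30891 CPM. With saline at 0 h, the leukocyte sum was 3266 to 3741 with EtOH and 2489 to 3108 CPM with CHO, and the endothelial sum was 29269 to 31137 against 33074 to 39255 CPM. With AM21 at 0 h, the hepatocyte sum was 631597 to 701217 with EtOH and 490563 to 565296 CPM with CHO. Single miRNAs with all EtOH-fed above all CHO-fed animals made up 4.9% to 12.6% of all in the 8 settings, so such separation of 3 from 3 animals is no sign by itself that a list changed. These shares cover EtOH higher only, whereas the untreated mesenchymal sum and the endothelial sum with saline, both at 0 h, had CHO higher. Between diets, limma called the blood miRNA miR-451 higher with EtOH in untreated livers at 24 h (1.31, adjusted p = 0.0188) and the leukocyte miRNA miR-342-3p higher with EtOH in saline-treated livers at 0 h (1.07, adjusted p = 0.00873), both also with voom weights. It called 0 hepatocyte, 0 endothelial, and 0 mesenchymal miRNAs in each setting, as it did with voom weights. At an unadjusted p under 0.05 there were at most 1 hepatocyte, 0 endothelial, and 2 mesenchymal miRNAs in a setting. With saline at 0 h, 2 leukocyte miRNAs were higher with EtOH at that threshold and 1 was lower. The lower one was miR-223, with means of 7.76 log2 CPM with EtOH and 8.29 with CHO. The leukocyte list thus went both ways there. Over the settings, limma called 0% to 2.1% of all miRNAs. Of the 142 miRNAs other than miR-103, voom weights called 0% to 4.93%, and 2.82% to 17.6% had an unadjusted p under 0.05. The part of blood and of these lists in the difference in miR-103 was not tested. The values with the covariate only describe the differences on which miR-103 was selected.

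miR-107, with the same seed as miR-103, had a mean count of 90.9. The probes' sequences were not used here, and how far either probe reads the other miRNA was not tested. In untreated animals at 0 h, miR-107 stood at 9.21, 8.81, and 9.31 log2 CPM in CHO-fed and 9.05, 9.02, and 9.20 in EtOH-fed livers. The diets overlapped, where those of miR-103 did not. At 24 h it stood at 9.12, 9.07, and 8.66 in untreated CHO-fed and 9.27, 9.42, and 9.49 in untreated EtOH-fed livers, without overlap. For miR-107 in untreated livers, EtOH minus CHO was -0.02, 0.16, 0.44, and 0.26 at 0, 6, 24, and 72 h in that order (standard error 0.18 throughout). None was called by limma, which compares each group mean with the spread shared by all groups and calls a miRNA at a Benjamini-Hochberg adjusted p under 0.05 (adjusted p of 0.968, 0.81, 0.193, and 0.64). With saline it was 0.03 before surgery and 0.06 at 24 h, and with AM21 0.12 and 0.40 (standard error 0.21; limma adjusted p of 0.917, 0.968, 0.929, and 0.537). Whether both miRNAs differed from each other in their response to diet was not tested, because the values of miR-103 chose it.

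**Figure D2:**
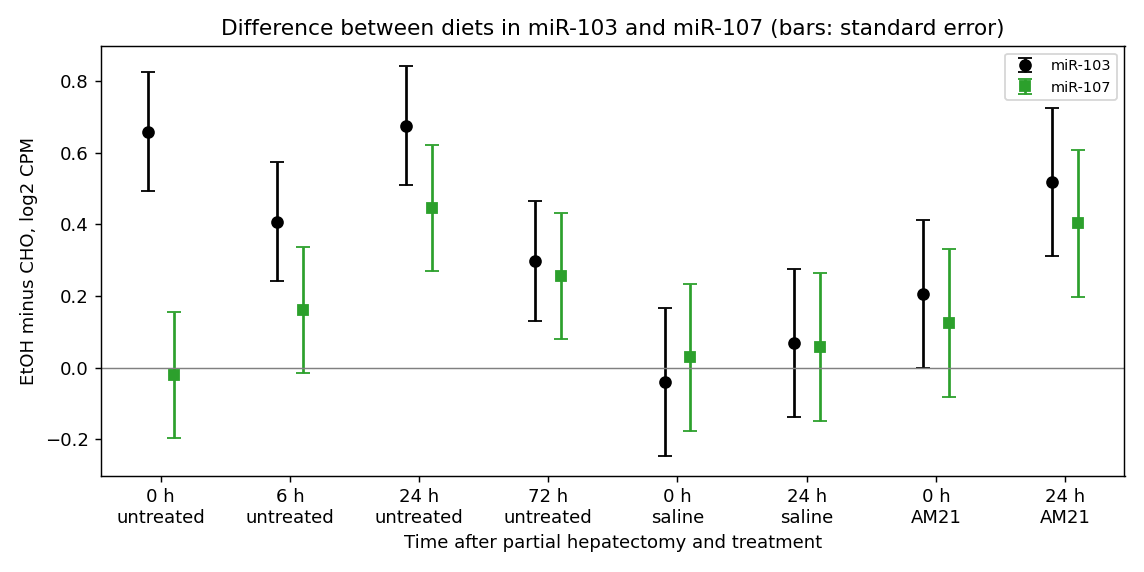
EtOH minus CHO difference (log2 CPM) in miR-103 (black circles) and miR-107 (green squares) in the 8 settings of time and treatment, with bars of 1 standard error from the fit and 3 animals per diet. The 2 miRNAs lay furthest apart in untreated livers at 0 h (0.66 and -0.02) and close together with saline at 24 h (0.07 and 0.06).

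The first question on which miR-103 had not been selected was whether it moved during regeneration. At 6 h against 0 h, averaged over diets, miR-103 differed by 0.13 on the log2 scale (standard error 0.12, 95% interval -0.12 to 0.37, limma adjusted p = 0.36), with 0.25 for CHO and 0.0024 for EtOH. At 72 h against 0 h the difference was 0.07 (standard error 0.12, 95% interval -0.17 to 0.32, adjusted p = 0.661 by limma), with 0.25 for CHO and -0.11 for EtOH. miR-103 was called in neither, while 35 of 143 miRNAs (24.5%) were called at 6 h and 51 (35.7%) at 72 h. Between 6 and 72 h, the difference was -0.06 (standard error 0.12, 95% interval -0.30 to 0.19, limma adjusted p = 0.74), in a comparison that called 67 miRNAs (46.9%). Blood miRNAs moved over the course. Both were called lower at 72 h than at 0 h, with differences of -1.16 for miR-144 (limma adjusted p = 0.00194, standard error 0.27) and -1.31 for miR-451 (adjusted p = 5.66e-05, standard error 0.21), and their sum ran from 1306 to 3791 CPM at 0 h and from 550 to 1898 CPM at 72 h. Among cell markers at 6 h, endothelial miR-126 (-0.89) and hepatocyte miR-192 were called lower, and mesenchymal miR-145 (0.53) and leukocyte miR-342-3p higher. The hepatocyte, mesenchymal, and leukocyte lists each also held 1 miRNA that went the other way at an unadjusted p under 0.05. At that threshold stood 48.3% of all miRNAs, and these lists thus had no single direction at 6 h. Cell lists other than blood went both ways at 72 h as well. The hepatocyte miRNA miR-122 was called higher (0.38). Of the leukocyte miRNAs, miR-150 was called lower (-0.70), while the other 3 had positive values that were not called. Of the mesenchymal miRNAs, miR-145 was called lower (-0.73) and miR-199a-5p higher (0.43). With both blood miRNAs as a covariate, the difference in miR-103 at 72 h was 0.0025 (limma adjusted p = 0.99, in a range of 0.372 to 0.99 over all alternatives). miR-103 thus was not among the miRNAs called along the course, and the intervals leave room for changes of up to about 0.37. Livers of 6 and 72 h carry set number 4 in the labels and those of 0 and 24 h carry other numbers, so for 6 or 72 h against 0 h the time and the set cannot be told apart.

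At 24 h against 0 h in untreated livers, miR-103 differed by -0.0028 (standard error 0.12, 95% interval -0.25 to 0.24, limma adjusted p = 0.988), and 29 miRNAs (20.3%) were called. In saline- and AM21-treated livers, the difference at 24 h against 0 h was -0.23 (standard error 0.10, 95% interval -0.44 to -0.02), with an unadjusted p of 0.0356 and a limma adjusted p of 0.0754. All 4 pairs of group means were lower at 24 h, with differences of -0.33 under CHO and -0.12 under EtOH, and 57 miRNAs (39.9%) were called. Both blood miRNAs were called lower in the same comparison, at -0.92 for miR-144 (limma adjusted p = 0.0208, standard error 0.31) and -1.01 for miR-451 (adjusted p = 0.00149, standard error 0.23), with a sum of 1019 to 5974 CPM at 0 h and 407 to 2106 CPM at 24 h. With them as a covariate, the difference in miR-103 was -0.29 (limma adjusted p = 0.082). Other cell markers were called as well, with hepatocyte miR-122 (0.31) and mesenchymal miR-143 (0.33) and miR-199a-5p higher. The other 2 mesenchymal miRNAs, miR-145 and miR-199a-3p, were lower at an unadjusted p under 0.05, as a threshold that 51.7% of all miRNAs met. The mesenchymal list thus went both ways. Of the leukocyte miRNAs, miR-150 was called lower (-0.39) and miR-223 higher. The part of these markers in the difference in miR-103 was not tested. Time and the second injection cannot be told apart in this comparison. The difference failed the adjusted threshold with the deposited values. It passed, at -0.38 (limma adjusted p = 0.0111, in a range of 0.0111 to 0.198 over all alternatives), with scaling to the total count alone, where the median of all miRNAs moved by -0.15.

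AM21 was given to block miR-21, and whether miR-103 moved with it was tested over both diets and times. AM21-treated animals differed from untreated and saline-treated animals by -0.0064 in miR-103 (standard error 0.09, 95% interval -0.19 to 0.18, limma adjusted p = 0.981), and 8 miRNAs (5.59%) were called. The change to 24 h differed between AM21 and controls by -0.11 (standard error 0.18, 95% interval -0.47 to 0.26, adjusted p = 0.998 by limma). By limma, that test called 0 of 143 miRNAs (0%), or 0 with voom weights, and 4 had an unadjusted p under 0.05. No difference of miR-103 with AM21 was detectable at this spread.

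Saline-treated animals differed from untreated animals by 0.14 in miR-103, averaged over diets and times (standard error 0.10, 95% interval -0.07 to 0.36, limma adjusted p = 0.971), and 2 miRNAs (1.4%) were called. Of these, 1 was the mesenchymal miRNA miR-199a-5p, higher with saline (0.34, limma adjusted p = 0.0407, not called with voom weights), and the mesenchymal sum at 0 and 24 h ran from 13750 to 22276 CPM untreated and from 14997 to 24946 CPM with saline. Both blood miRNAs were lower with saline at an unadjusted p under 0.05 without a call (-0.71 for miR-144 and -0.55 for miR-451), and their sum ran from 1195 to 4360 CPM untreated and from 407 to 5257 CPM with saline. With the blood miRNAs as a covariate, the difference in miR-103 was 0.10 (limma adjusted p = 0.986, in a range of 0.724 to 1 over all alternatives), and the part of the mesenchymal miRNAs was not tested. By diet, the difference was 0.47 (standard error 0.15) in CHO-fed and -0.18 (standard error 0.15) in EtOH-fed animals. These values by diet hold the difference for which miR-103 was selected and were not tested.

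The relatives of miR-103 by seed came from a list of 9, of which 6 were measured. miR-107 was called in none of the 8 tests. At 72 h against 0 h, 2 of the 6 were called, where 35.7% of all miRNAs were. miR-16, which acts on cell cycle genes, was higher at 72 h than at 0 h by 1.31 (standard error 0.16, limma adjusted p = 5.15e-06). Its neighbour on the chromosome, miR-15b, was higher by 0.96 (standard error 0.15, adjusted p = 4.02e-05 by limma). At 72 h against 6 h, 3 of the 6 were called against 46.9% of all miRNAs, so the count is near the background. These were miR-15b, miR-16, and miR-322, higher by 0.69, 1.23, and 0.68, and the median of the 6 was 0.53 against 0.02 over all miRNAs. Cell markers were also called there, with miR-126, miR-142-3p, miR-192, and miR-199a-3p higher and miR-145, miR-150, miR-342-3p, and miR-451 lower. The part of these markers in the 3 rises was not tested. miR-16 was also higher at 24 h than at 0 h, by 0.54 in untreated and 0.28 in saline- and AM21-treated livers, as the single member called there, where 20.3% and 39.9% of all miRNAs were called. These counts lie near or below the share of all miRNAs and are no result about the list. The part of the fall in blood miRNAs from 0 to 72 h in the rises of miR-15b and miR-16 was not tested. At 6 h against 0 h, 0 of the 6 were called by limma (1 at an unadjusted p under 0.05 and 1 with voom weights). The shares of all miRNAs were 24.5%, 48.3%, and 35.7% in that order. With AM21, 1 of the 6 was called against 5.59% of all miRNAs. This was miR-497, lower at -0.31 (standard error 0.09, limma adjusted p = 0.0302), and voom weights ended this call. The mesenchymal miRNAs miR-199a-3p (-0.31) and miR-199a-5p (-0.51) were called lower in the same test, and their part in the value of miR-497 was not tested. For saline against untreated animals and for the change to 24 h with AM21, 0 of 6 were called by limma, by voom weights, or at an unadjusted p under 0.05. In that order, the shares of all miRNAs were 1.4%, 0.699%, and 6.29% for saline. They were 0%, 0%, and 2.8% for the change with AM21, so these counts are no result about the list either.

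Between diets, miR-16 was the single seed relative called, higher in EtOH-fed animals with saline at 0 h by 0.85 (standard error 0.19, limma adjusted p = 0.00971). The shares of all miRNAs called between diets by limma in untreated livers were 2.1%, 0%, 2.1%, and 0% at 0, 6, 24, and 72 h. They were 2.1% at 0 h and 0% at 24 h with saline, and 0% at both times with AM21. Calls between diets were thus few in every setting, and those of seed relatives or of insulin miRNAs are read against that background.

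Of 27 miRNAs listed for roles in insulin signalling or glucose metabolism, without miR-103, 21 were measured. At 6 h against 0 h, 5 were called, where 24.5% of all miRNAs were. Of these, 1 was higher, the smooth muscle miRNA miR-145 (0.53), and 4 were lower, namely let-7f (-0.52), the endothelial miRNA miR-126 (-0.89), miR-29b (-0.81), and miR-29c (-0.64). At 72 h against 0 h, 5 were called, where 35.7% of all miRNAs were. The liver miRNA miR-122 (0.38) and the p53 target miR-34a (1.04) were higher, and miR-145 (-0.73), miR-181a (-0.90), and miR-29a (-0.50) were lower. Members thus went both ways at each time, and their medians were 0.21 at 6 h and -0.05 at 72 h against 0.07 and 0.03 over all miRNAs. At 72 h against 6 h, 10 of 21 were called against 46.9% of all miRNAs, and 5 were higher (let-7f, miR-126, miR-29b, miR-29c, and miR-34a) and 5 were lower (let-7e, miR-145, miR-181a, miR-29a, and miR-378).

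At 24 h against 0 h in untreated livers, 4 of 21 were called against 20.3% of all miRNAs. Of these, miR-223 (0.58), a miRNA of myeloid cells, and miR-34a (0.71) were higher, and miR-145 (-0.43) and miR-181a (-0.60) were lower. In saline- and AM21-treated livers, 8 of 21 were called against 39.9% of all miRNAs. At 24 h, 5 members were higher (miR-122, miR-143, miR-223, miR-29b, and miR-34a) and 3 were lower (let-7c, miR-181a, and miR-26a). The insulin miRNAs were thus called near or below the rate of all miRNAs over time, and these counts are no result about the list. None of the called members of either list changed direction under another of the 4 scalings tried. With AM21, 0 of the 21 were called by limma, with 3 at an unadjusted p under 0.05 and 0 with voom weights, against 5.59%, 11.9%, and 4.9% of all miRNAs. For saline against untreated animals it was 0 by each of these measures, and for the change to 24 h with AM21 it was 0 by limma, 1 unadjusted, and 0 with voom weights. The shares of all miRNAs, in the same order, were 1.4%, 6.29%, and 0.699% for saline and 0%, 2.8%, and 0% for the change with AM21.

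Between diets, limma called 0 of the 21 insulin miRNAs in each of the 8 settings. At an unadjusted p under 0.05 there were 3, 1, 3, and 5 in untreated livers of 0, 6, 24, and 72 h, 4 and 0 with saline, and 1 and 2 with AM21 at 0 and 24 h. The shares of the other 142 miRNAs at that threshold were, in the same order, 17.6%, 8.45%, 10.6%, and 9.86% untreated, 17.6% and 2.82% with saline, and 6.34% and 7.75% with AM21. Whether the counts exceeded these shares was not tested. With voom weights, let-7a was called at 0 h (0.56, higher in EtOH-fed animals) and let-7b at 24 h (-0.76) in untreated livers, and 0 in the other 6 settings. Over all 142 miRNAs, voom weights called 2.11% at 0 h and 2.82% at 24 h in untreated livers. Their adjusted p by limma without weights was 0.0718 and 0.0664. The medians of the list between diets lay between -0.11 and 0.03, where those of the other 142 miRNAs together lay between -0.09 and 0.03.

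The miRNAs whose log2 CPM was most like that of miR-103 over the 48 animals were miR-148b-3p (Pearson r of 0.66), miR-365 (0.565), miR-151 (0.479), let-7d (0.409), and miR-30c (0.373). Animals of a group share their condition, and within groups r was 0.556 for miR-148b-3p, 0.211 for miR-365, 0.079 for miR-151, 0.105 for let-7d, and 0.037 for miR-30c. By Spearman's rho over animals, the same 5 led, with 0.604 for miR-148b-3p. The likeness of the last 3 thus lay mainly between groups, where r over the 16 group means was 0.672, 0.628, and 0.568. miR-107 ranked 6, with r of 0.364 over animals, 0.721 over group means, and 0.004 within groups. All 5 leading miRNAs are among the 12 that had EtOH above CHO without overlap in at least 3 settings, so that the difference between diets, for which miR-103 was selected, is part of the likeness.

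Least like miR-103 were miR-532-5p (r of -0.497), miR-455 (-0.431), and the miR-20a and miR-20b-5p probe (-0.408). Within groups r was -0.457, 0.079, and -0.217, and over group means it was -0.539, -0.774, and -0.515, so that the opposition of miR-455 lay between groups, where the difference between diets sits. Without the TMM factor, their r was 0, -0.031, and -0.144, while that of miR-148b-3p was 0.753. It was 0.624 for miR-365, 0.581 for miR-151, 0.576 for let-7d, and 0.513 for miR-30c, which fell from rank 5 to rank 8. All of these correlations were thus higher without the factor, and those at the lower end came closer to 0. miR-532-5p, miR-455, and the miR-20a and miR-20b-5p probe then ranked 105, 114, and 130 of 142. The least like miR-103 was then miR-122 (r of -0.447). miR-455 had the lower mean in EtOH-fed animals in all 8 settings, with differences of -0.73 at 0 h and -0.95 at 24 h in untreated livers.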

How the data were processed

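The authors deposited log2 CPM of 143 rat miRNAs, made from NanoString counts by TMM scaling and voom. The filter that left 143 of 420 assayed miRNAs is not given in the sources used here. Counts were recovered with voom's pseudocount of 0.5, and every count came out whole within 0.001 (largest deviation 4.9e-04). Deposited values were fitted with limma 3.58.1 in R 4.3.3, with 1 mean per group, without a further filter. Time comparisons used 24 untreated animals in 8 groups, and comparisons with saline or AM21 used 36 animals at 0 and 24 h in 12 groups. P-values were two-sided, adjusted by Benjamini-Hochberg over 143 miRNAs within a comparison, and called under 0.05. Figures used matplotlib 3.10.9 in Python 3.11.15, and the fit was checked on simulated data.

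Named miRNAs were miR-103, the listed relatives, insulin miRNAs and cell markers, and the 5 most and 3 least correlated miRNAs. miR-152, miR-210, miR-409-3p, and miR-425 were named besides, after their values were seen. Members and lists were chosen with earlier results of these data known. Alternatives were other scalings, voom weights, other animals in the fit, covariates, a count filter, a replicate block, and omission of single animals. Same-numbered animals correlated above 0.1 in every pair, after group means were removed, in 10 of 66 group pairs and in 2 of 6 comparisons of diets, those of untreated animals at 0 h (0.516, 0.793, and 0.654) and of saline-treated animals at 24 h (0.237, 0.204, and 0.198). Between 0 and 24 h within a diet and treatment, the same held for untreated CHO-fed animals (0.115, 0.301, and 0.282). It also held for saline-treated EtOH-fed animals (0.417, 0.11, and 0.335), and not for the remaining diets and treatments. The labels do not say what a number stands for.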

Additional observations from a re-analysis of the deposited data

How the results depend on the processing

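The 8 tests of miR-103 were repeated 253 times with other settings or without 1 animal, and 5 repeats were called. All were of 24 h against 0 h in saline- and AM21-treated livers. That difference was -0.38 with scaling to the total count without the TMM factor (limma adjusted p = 0.0111), and ran from -0.27 to -0.16 without single animals, passing the threshold without EtOH-fed AM21 replicate 1 at 0 h (-0.26, adjusted p = 0.0486), CHO-fed AM21 replicate 2 at 0 h (-0.27, adjusted p = 0.0395), CHO-fed saline replicate 3 at 24 h (-0.26, adjusted p = 0.0472), or CHO-fed AM21 replicate 3 at 24 h (-0.27, adjusted p = 0.0343). Over its alternatives the adjusted p ran from 0.0111 to 0.198. Groups left with 2 animals were assumed to vary like the others.

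Differences near 0 changed sign without a call. For AM21 against controls, the value was 0.0096 with RLE size factors, 0.068 with the geometric mean of the 100 highest miRNAs, 0.024 with the total count without miR-122, 0.003 with voom weights, and -0.053 to 0.056 without single animals. For 24 h against 0 h in untreated livers it was 0.016 with voom weights, 0.011 with log10 total count as a covariate, 0.012 with red blood cell miRNAs as a covariate, and -0.070 to 0.047 without single animals. The 72 h against 0 h value was -0.16 without the TMM factor, where the median of all miRNAs moved by -0.23. The 72 h against 6 h value ran from -0.11 to 0.0011 without single animals. With other scalings it stayed negative, at -0.09 with RLE size factors and -0.18 with the geometric mean of the 100 highest miRNAs. It was -0.19 with the total count without miR-122 and -0.17 without the TMM factor. The change to 24 h with AM21 minus that in controls was 0.0074 against saline-treated animals only, and -0.20 to 0.018 without single animals. Their cause was not tested. The tests of 6 h against 0 h (0.0069 to 0.21) and of saline against untreated animals (0.10 to 0.19) kept their direction and had no call under any alternative run.

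The difference between diets moved by more than the SD within groups in 3 of 134 repeats. It was 0.40 at 0 h in untreated and -0.29 at 0 h in saline-treated livers without the TMM factor, and 0.27 at 24 h with AM21 without CHO-fed replicate 1, where omissions gave 0.27 to 0.70. With the replicate number as a block, estimates were the same because each number occurs once per group, and the adjusted p for 24 h against 0 h in saline- and AM21-treated livers was 0.0577 (-0.23). The block changed no call. At 6 and 72 h the numbers differ, and no block was fitted.

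At 6 h against 0 h, 35 became 55 with the geometric mean of the 100 highest miRNAs, 17 with only the groups compared, 58 with log10 total count, 18 with red blood cell miRNAs, and 22 to 69 without single animals. At 24 h in untreated livers, 29 became 9 with only the groups compared and 18 to 34 without single animals, and at 72 h against 0 h, 51 became 24 with red blood cell miRNAs. For saline against untreated animals, 2 became 0 without the TMM factor, with only the groups compared, or with red blood cell miRNAs, 1 with voom weights, all 48 animals, or log10 total count, and 0 to 2 without single animals. For AM21, 8 became 5 to 10 without single animals. For the change to 24 h with AM21, 0 became 1 with all 48 animals or saline-treated controls only, and 0 to 1 without single animals. Counting error limits a liver of 29 counts to a precision of 0.268 in miR-103.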
